A study of Homo sapiens with 4 samples.

Results

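The genes described here serve TNF signalling and were measured in MDA-MB-231, a human cell line from triple-negative breast cancer: the ligand gene TNF, the adaptors TRAF1 and TRAF2, the cellular inhibitor of apoptosis (cIAP) genes BIRC2 and BIRC3, the brakes TNFAIP3, TNIP1 and CYLD, and the inducible genes TNFAIP2 and ICAM1. They were chosen by symbol, with earlier results of these data known. All 10 matched 1 row each among the 20263 genes of the deposited count table. RNA was sequenced after 24 h with RB-BC, which the study title calls a ribociclib derivative (2 libraries; ribociclib inhibits the kinases CDK4 and CDK6), or with the vehicle DMSO (2 libraries). No dose is given in the sources used here, and the treatment protocol calls the compound Rib_CA without saying whether that is RB-BC. The cells of both groups grew in medium with 10% serum and carried no other labelled treatment, so the groups stand for 1 cell line at 1 time.

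Binding of TNF to its receptor assembles a complex in which TRAF2 and the cIAP ubiquitin ligases build ubiquitin chains that activate the IκB kinases and the transcription factor NF-kB. NF-kB in turn induces several of the complex's own components and its inhibitors, so transcripts of adaptors and brakes can rise as feedback. TNFAIP3 (A20) and CYLD take ubiquitin chains apart, TNIP1 (ABIN1) binds such chains and works with A20, and the cIAPs together with TRAF2 and TRAF3 keep the kinase NIK, of the noncanonical NF-kB branch, at a low protein level.

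Library totals ran from 34774542 to 42786422 counts. Mitochondrially encoded genes took 10.1% and 10.3% of the counts in RB-BC 1 and RB-BC 2, against 8.68% in DMSO 1 and 21.7% in DMSO 2, so the fold changes of the tested members and of the called pathway genes, the counts of calls and the paralog ratios were also computed without DMSO 2. Markers listed for a breast cancer line with mesenchymal features were present, which does not by itself identify the line. VIM, KRT8, KRT18, CD44, EGFR and AXL each had at least 41.5 CPM per kilobase of exon in every library. CPM is the read count of a gene scaled to the TMM-adjusted size of its library. Of the 3 receptors by whose protein a triple-negative tumour is defined, ESR1 had at most 23 counts and PGR at most 58 counts in any library, while ERBB2 transcript was present at 57.4 and 56.3 CPM in RB-BC, against 71.5 and 64.1 CPM in DMSO. Of 4 leukocyte markers, CD3E had no counts, and the 4 together came to 1.498 and 1.62 CPM in RB-BC, against 1.12 and 0.895 CPM in DMSO. The 4 endothelial markers together reached 10.7 and 13.7 CPM in RB-BC, against 7.57 and 6.80 CPM in DMSO, most of it KDR, and CDH5 had 0 and 2 counts in RB-BC and none in DMSO. In bulk RNA, more cells expressing a gene and more RNA per cell cannot be told apart.

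Promoter windows, from 250 bases before to 50 bases after an annotated start, are shown for some of the members. These are the strongest-changing brake among the members, the cIAP pair, the most abundant brake and a brake that did not pass the test. The windows of ICAM1 and TRAF1, the members that rose most, held no match to the NF-kB consensus motif and are not shown. For TNIP1 and CYLD the window shown is one that held a match. The windows come from RefSeq on GRCh38.p14, which listed at least 1 window for all 10 genes and 16 windows in all. They lie at chr6:137867009-137867308 on the plus strand (TNFAIP3), chr11:102317234-102317533 plus (BIRC3), chr11:102346964-102347263 plus (BIRC2, the upstream of 2 windows), chr5:151080985-151081284 minus (TNIP1, 1 of 2 windows) and chr16:50741836-50742135 plus (CYLD, 1 of 3 windows). Each is written 5′ to 3′ on the gene's strand, with capitals where the NF-kB consensus motif matched on either strand.
TNFAIP3: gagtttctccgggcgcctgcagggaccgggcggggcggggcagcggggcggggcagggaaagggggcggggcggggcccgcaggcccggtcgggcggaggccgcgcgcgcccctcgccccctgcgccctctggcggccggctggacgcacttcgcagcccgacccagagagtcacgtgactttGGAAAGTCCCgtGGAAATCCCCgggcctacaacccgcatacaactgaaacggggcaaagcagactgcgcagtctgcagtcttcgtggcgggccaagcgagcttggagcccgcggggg
BIRC3: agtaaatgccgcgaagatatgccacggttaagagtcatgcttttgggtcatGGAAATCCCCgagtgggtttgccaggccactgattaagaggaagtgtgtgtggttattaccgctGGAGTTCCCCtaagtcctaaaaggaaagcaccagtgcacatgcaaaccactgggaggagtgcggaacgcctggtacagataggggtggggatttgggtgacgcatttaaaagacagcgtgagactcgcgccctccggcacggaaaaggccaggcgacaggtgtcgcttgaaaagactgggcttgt
BIRC2: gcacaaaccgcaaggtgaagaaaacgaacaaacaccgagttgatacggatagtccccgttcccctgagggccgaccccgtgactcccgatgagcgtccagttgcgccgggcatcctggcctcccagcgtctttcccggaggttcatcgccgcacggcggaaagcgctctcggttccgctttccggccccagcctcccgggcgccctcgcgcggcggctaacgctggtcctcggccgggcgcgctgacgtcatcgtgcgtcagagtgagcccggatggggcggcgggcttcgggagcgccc
TNIP1: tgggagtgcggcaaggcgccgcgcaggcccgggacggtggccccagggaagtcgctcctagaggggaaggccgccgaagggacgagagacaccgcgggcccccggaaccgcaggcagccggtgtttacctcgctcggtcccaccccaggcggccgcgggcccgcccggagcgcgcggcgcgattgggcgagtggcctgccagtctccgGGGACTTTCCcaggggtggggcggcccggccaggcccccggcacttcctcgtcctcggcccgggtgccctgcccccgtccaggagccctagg
CYLD: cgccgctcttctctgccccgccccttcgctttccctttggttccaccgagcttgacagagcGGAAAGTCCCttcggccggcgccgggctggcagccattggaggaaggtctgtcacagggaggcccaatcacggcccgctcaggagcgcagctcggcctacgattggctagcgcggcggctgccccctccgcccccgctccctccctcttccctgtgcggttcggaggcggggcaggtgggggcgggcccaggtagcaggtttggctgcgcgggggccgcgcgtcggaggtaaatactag

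The TNFAIP3 window held 2 consensus matches, GGAAAGTCCC starting 67 bases and GGAAATCCCC starting 55 bases upstream of the start. In BIRC3 the matches were GGAAATCCCC at 199 bases and GGAGTTCCCC at 135 bases upstream. TNIP1 had GGGACTTTCC at 42 bases upstream, and CYLD had GGAAAGTCCC at 189 bases upstream in the window shown and GGGGCTTCCC at the start itself in another window. Neither BIRC2 window held a match, and none was found in the windows of TNF, TRAF1, TRAF2, TNFAIP2 or ICAM1. In all, 5 of the 16 windows held a consensus match, against 5.91% of the 35116 windows in the table. These windows came from 4 of the 10 genes, and no share per gene over all genes was computed. Because the members were chosen with earlier results of these data known, these shares describe the list and are no test of it. The motif was GGGRNWYYCC, where R is A or G, Y is C or T, W is A or T and N is any base. Sites with other letters were not counted. A match is a run of letters, and its absence says only that these letters are not in this window.

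Cells treated with RB-BC had higher transcript levels of 1 adaptor, 1 cIAP, 2 brakes and both inducible genes, while the paralogous adaptor TRAF2, the cIAP gene BIRC2 and the brake CYLD did not pass the test. ICAM1 was 11.04-fold, TRAF1 9.98-fold, TNFAIP3 7.33-fold, BIRC3 4.71-fold, TNIP1 3.50-fold and TNFAIP2 1.81-fold higher. By edgeR's quasi-likelihood test with Benjamini-Hochberg adjustment over all 13744 tested genes (threshold 0.05), 6 of the 9 tested members rose and 0 fell, where 8.58% of all tested genes rose and 7.53% fell. Rises of at least 4-fold that also passed the test numbered 4 among the 9, against 1.1% of all tested genes. Because the members were chosen with earlier results of these data known, these shares describe the list and are no test of it. The median log2 fold change of the 9 was 1.81, against −0.0016 over all tested genes, and TNF was too low to be tested. The groups did not overlap for 7 of the 9 (the 6 that rose and TRAF2), as they did not for 65.2% of all tested genes.

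**Figure D1:**
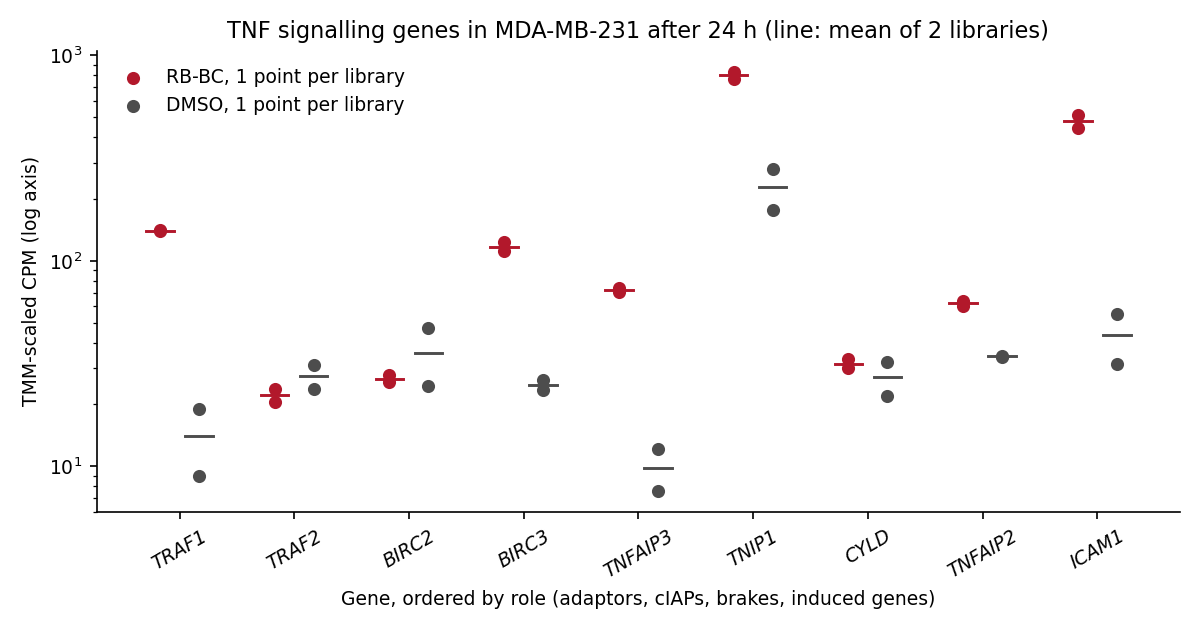
Level of each tested gene in every library, as TMM-scaled CPM on a log axis, with RB-BC (red) left of DMSO (grey), 1 point per library and a line at the mean of 2 libraries. The RB-BC points of TRAF1, BIRC3, TNFAIP3, TNIP1, TNFAIP2 and ICAM1 lie clear above both DMSO points, whereas the groups overlap for BIRC2 and CYLD.

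The ligand itself was barely detected. TNF had 0 and 9 counts in RB-BC 1 and RB-BC 2, and 0 and 0 counts in DMSO 1 and DMSO 2. The 3 counts that a count of 0 allows correspond to 0.0692 CPM in RB-BC 1, 0.0797 CPM in DMSO 1 and 0.0895 CPM in DMSO 2, limits that cover counting error only. The only signal was the 0.205 CPM of RB-BC 2, so a difference in TNF transcript was not detectable at this depth.

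Among the adaptors, TRAF1 lacks the RING domain of its family and is itself an NF-kB-inducible gene, whereas TRAF2 has the RING and recruits the cIAPs. TRAF1 stood at 141 and 139 CPM in RB-BC, against 19.0 and 8.98 CPM in DMSO. The RB-BC libraries were nearly equal, and the DMSO libraries differed more from each other than the RB-BC ones did, yet both were far lower. The log2 fold change was 3.32 ± 0.36 (SE; edgeR adjusted p = 0.00832), 3.96 without DMSO 1 and 2.88 without DMSO 2. TRAF2 had 23.7 and 20.6 CPM in RB-BC, against 31.2 and 23.8 CPM in DMSO. The nearest libraries of the groups almost met, and in unscaled counts the groups overlapped. Its log2 fold change of −0.31 ± 0.19 (edgeR adjusted p = 0.292) had a 95% interval from −0.78 to 0.15, so a 1.11-fold rise and a fall to 0.583-fold both lay at its limits.

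BIRC2 (cIAP1) and BIRC3 (cIAP2) encode closely related ubiquitin ligases that bind TRAF2, and in cells cIAP1 can target cIAP2 for degradation. The genes are next to each other on chromosome 11, on the same strand, in GENCODE release 29. BIRC3 measured 111 and 123 CPM in RB-BC, against 26.4 and 23.4 CPM in DMSO. Libraries within each group were close together, and the groups lay far apart. Its log2 fold change was 2.23 ± 0.15 (edgeR adjusted p = 0.00408), the smallest standard error among the 4 members that rose at least 4-fold. BIRC2 measured 25.6 and 27.7 CPM in RB-BC, against 47.1 CPM in DMSO 1 and 24.5 CPM in DMSO 2. Both RB-BC values fell between the DMSO values, and its direction turned on the DMSO library left out. With all 4 libraries BIRC2 was at −0.43 ± 0.30 (95% interval −1.17 to 0.32, edgeR adjusted p = 0.360), without DMSO 1 at 0.12 (edgeR adjusted p = 0.540) and without DMSO 2 at −0.82 (edgeR adjusted p = 0.0158).

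The paralogs were also set against each other within each library, where library scaling plays no part. The ratio of BIRC3 to BIRC2 counts was 4.34 and 4.45 in RB-BC, against 0.562 and 0.956 in DMSO. On the log2 scale, with 0.5 added to each count, the mean ratio was 2.14 ± 0.03 in RB-BC and −0.45 ± 0.54 in DMSO (SD, n = 2 each), a difference of 2.59. The ratio of TRAF1 to TRAF2 counts was 5.93 and 6.73 in RB-BC, against 0.608 and 0.378 in DMSO, a difference of 3.72 between the mean log2 ratios. An exact two-sided permutation test gave p = 0.333 for each ratio, the smallest that 2 against 2 libraries allow, so these differences could not reach the threshold. Read sharing between the paralogs is limited by their sequences: of the distinct 50-base words in BIRC3 protein-coding transcripts in GENCODE 29, 11 of 7075 also occurred in BIRC2, and TRAF1 shared 0 of 6398 with TRAF2.

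**Figure D2:**
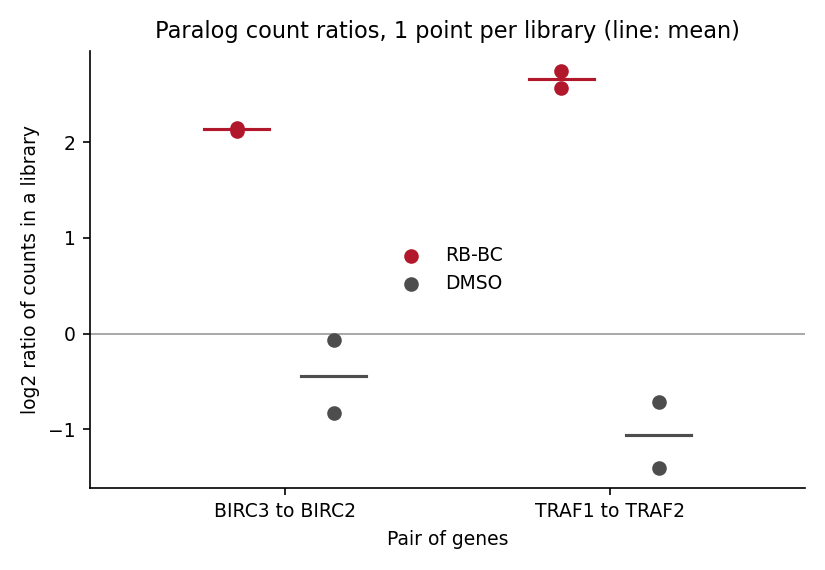
Log2 ratio of BIRC3 to BIRC2 counts and of TRAF1 to TRAF2 counts in each library, RB-BC (red) left of DMSO (grey), with a line at the mean of 2 libraries. Both ratios are above 0 in the 2 RB-BC libraries and below 0 in the 2 DMSO libraries.

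The brakes did not move alike. TNFAIP3, which encodes the ubiquitin-editing enzyme A20 and is a classical NF-kB target, had 73.3 and 70.8 CPM in RB-BC, against 7.57 and 12.1 CPM in DMSO. TNIP1, whose product recruits A20 to its substrates, had 833 and 765 CPM in RB-BC, against 176 and 281 CPM in DMSO. For both genes the RB-BC libraries agreed within a narrow range and DMSO 2 was above DMSO 1. The log2 fold changes were 2.87 ± 0.25 for TNFAIP3 (edgeR adjusted p = 0.00636) and 1.81 ± 0.25 for TNIP1 (edgeR adjusted p = 0.0123). The call of TNIP1 was lost when RB-BC 1 was left out (1.75, edgeR adjusted p = 0.0532). CYLD, the deubiquitinase lost in familial cylindromatosis, had 33.3 and 29.95 CPM in RB-BC, against 32.2 and 22.0 CPM in DMSO. The groups overlapped, and the log2 fold change was 0.22 ± 0.22 (95% interval −0.31 to 0.75), which did not pass. It was 0.53 without DMSO 1 and −0.029 without DMSO 2 (edgeR adjusted p = 0.0608 and 0.890).

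ICAM1, the adhesion molecule that leukocyte integrins bind, and TNFAIP2, a TNF-inducible protein linked to membrane nanotubes and exocytosis, were the inducible genes. ICAM1 had 510 and 445 CPM in RB-BC, against 31.6 and 55.0 CPM in DMSO. The lowest RB-BC library stood well above the highest DMSO library, and the log2 fold change was 3.46 ± 0.30 (edgeR adjusted p = 0.00636). TNFAIP2 had 63.7 and 60.3 CPM in RB-BC, against 34.4 and 34.1 CPM in DMSO. Libraries within a group were nearly equal, and the log2 fold change of 0.86 ± 0.14 passed (edgeR adjusted p = 0.0162). That call was lost when either RB-BC library was left out (0.82, edgeR adjusted p = 0.147 for RB-BC 1, and 0.90, edgeR adjusted p = 0.0941 for RB-BC 2). Antisense genes overlap TNFAIP3, CYLD and ICAM1 in GENCODE 29, and no source used here says whether counting used strand, so reads of these genes and their antisense partners cannot be told apart.

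**Figure D3:**
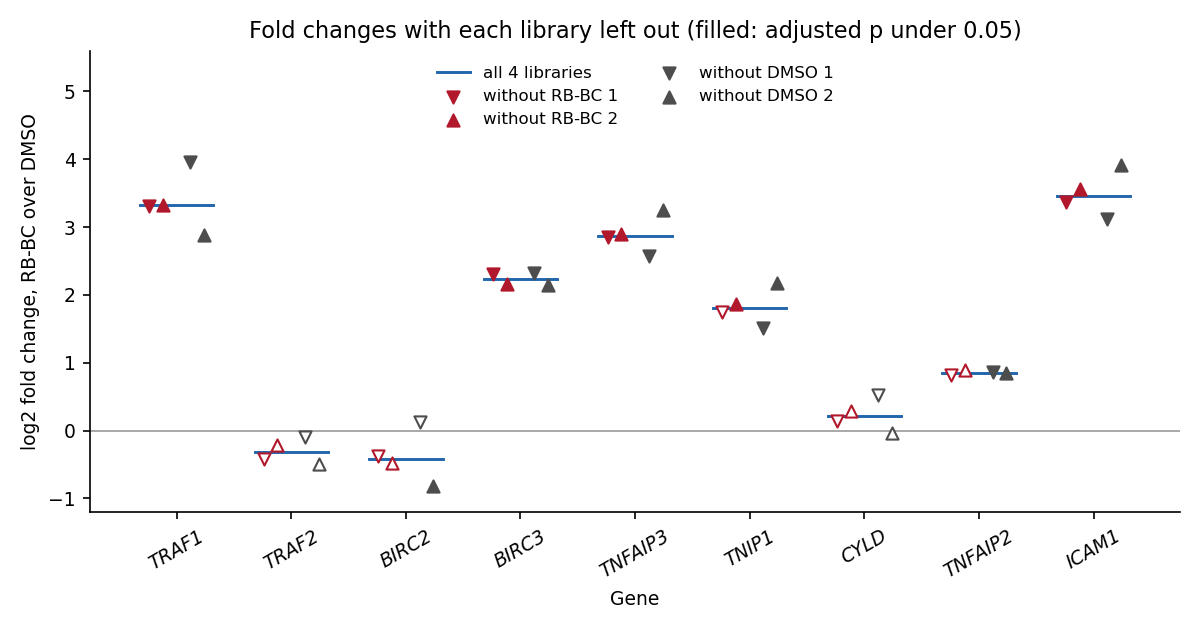
Log2 fold change, RB-BC over DMSO, of each tested gene with all 4 libraries (blue line) and with each library left out (triangles), filled where the adjusted p was under 0.05. TRAF1, BIRC3, TNFAIP3 and ICAM1 keep filled symbols throughout, TNIP1 and TNFAIP2 have open ones, and BIRC2 and CYLD change sign with the DMSO library used.

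The DMSO libraries did not differ from each other in 1 direction across these genes. TRAF1, TRAF2, BIRC2, BIRC3 and CYLD were higher in DMSO 1, TNFAIP3, TNIP1 and ICAM1 were higher in DMSO 2, and TNFAIP2 was nearly equal. The part of the mitochondrial share in these gaps was not tested. The SD between RB-BC libraries, from 1.17 CPM (TRAF1) to 48.4 CPM (TNIP1), was below that between DMSO libraries for 6 of the 9 genes and above it for BIRC3, TNFAIP2 and ICAM1. These SDs are not scaled to level. BIRC3, TNFAIP2 and ICAM1 all had higher means in RB-BC (ICAM1 478 CPM, against 43.3 CPM in DMSO).

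Levels per kilobase of exon, which allow genes to be compared, were ordered differently in the groups. In RB-BC the order was TNIP1 at 245 ± 14.8 CPM per kb, ICAM1 at 147 ± 14.2, TRAF1 at 21.7 ± 0.18, BIRC3 at 16.7 ± 1.20, TNFAIP3 at 14.7 ± 0.36, TNFAIP2 at 12.9 ± 0.50, TRAF2 at 7.56 ± 0.74, BIRC2 at 6.27 ± 0.34 and CYLD at 3.34 ± 0.25 (SD, n = 2). No neighbours in that order overlapped between libraries. In DMSO TNIP1 again led at 70.0 ± 22.6 CPM per kb, followed by ICAM1 at 13.3 ± 5.11, TRAF2 at 9.38 ± 1.79, BIRC2 at 8.42 ± 3.76 and TNFAIP2 at 7.11 ± 0.05. ICAM1, TRAF2 and BIRC2 overlapped in DMSO, and so did BIRC2 and TNFAIP2. BIRC3 (3.54 ± 0.30), CYLD (2.86 ± 0.77), TRAF1 (2.17 ± 1.10) and TNFAIP3 (2.01 ± 0.66) stood lowest, each overlapping its neighbour. TRAF1 was thus above TRAF2, and BIRC3 above BIRC2, in both RB-BC libraries, while in both DMSO libraries TRAF1 was below TRAF2 and BIRC3 below BIRC2. TNF, at 0 and 0.123 CPM per kb in RB-BC and at 0 in DMSO, was lowest in both groups.

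By their profile over the 4 libraries, the members lay nearest to different genes. Likeness was the Euclidean distance between log2 CPM profiles, each centred on its own mean, over 12218 other genes with a mean of at least 50 counts. Nearest to ICAM1 was ZC3H12A (distance 0.158), followed by NFKBIZ (0.380) and GDF15 (0.471). TNFAIP3 was nearest to STC1 (0.149), CHAC1 (0.205) and CH25H (0.277), and BIRC3 to STK32A (0.151) and TCP11L2 (0.195). TNIP1 was nearest to OPRL1 (0.0495), FA2H (0.147) and LOX (0.169). The single nearest gene was DCAF13 for TRAF2 (0.0368), PDF for BIRC2 (0.0518), UQCC2 for CYLD (0.0409) and SLC25A26 for TNFAIP2 (0.0480). TRAF1 had no neighbour as near, the closest being the read-through gene PTGES3L-AARSD1 (0.473), PTGES (0.572) and CDKN1A (0.603). Over only 4 libraries such distances mostly reflect the size of the difference between the groups and carry no test.

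Of 59 other genes of TNF receptor signalling, 55 could be tested, and 10 rose and 1 fell in RB-BC, where 8.58% of all tested genes rose and 7.53% fell. Their median log2 fold change was 0.34, against −0.0016 over all tested genes. This list, too, was chosen with earlier results of these data known. Among ligands and receptors, TNFRSF1B, which encodes TNF receptor type II, a protein that binds TRAF2 directly, had 29.3 and 21.0 CPM in RB-BC, against 4.73 and 6.92 CPM in DMSO (log2 fold change 2.11 ± 0.27, edgeR adjusted p = 0.0111). TNFRSF1A, the main death domain receptor of TNF, had 172 and 167 CPM in RB-BC, against 146 and 157 CPM in DMSO, and did not pass (0.16 ± 0.14, edgeR adjusted p = 0.444). LTB, the membrane anchor of lymphotoxin and the next coding gene after TNF on chromosome 6, had 148 and 79 counts in RB-BC, against 8 and 7 counts in DMSO (3.61 ± 0.49, edgeR adjusted p = 0.0118). LTA, on the other side of TNF, had 11 and 11 counts in RB-BC and 2 and 8 counts in DMSO and did not pass (edgeR adjusted p = 0.503). Its DMSO 2 value was close to those in RB-BC. LTBR, the lymphotoxin receptor, was at 0.51 ± 0.21 and did not pass.

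The receptor complex adaptor TRADD rose by 0.95 ± 0.22, with 21.9 and 15.7 CPM in RB-BC, against 10.4 and 9.10 CPM in DMSO (edgeR adjusted p = 0.0380). RIPK1 (−0.38 ± 0.14) and TRAF7 (0.13 ± 0.14) did not pass, and none of TRAF3, TRAF4, TRAF5 and TRAF6 passed either. RBCK1, which encodes the HOIL-1L subunit of the linear ubiquitin ligase LUBAC, rose by 0.93 ± 0.16 (edgeR adjusted p = 0.0203), while its partner SHARPIN was at 0.69 ± 0.19 (edgeR adjusted p = 0.0582) and the large IAP gene BIRC6 at −0.20 ± 0.17. Over all tested genes 16.1% passed in either direction. None of the 5 tested genes of the cell death arm did, too few genes to set that arm apart. Among them FADD was at 0.46 ± 0.15, and CFLAR, the caspase-8 inhibitor gene, had 56.2 and 23.3 CPM in RB-BC, against 25.2 and 58.4 CPM in DMSO. CFLAR thus varied more between libraries of a group than between the groups.

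In the kinase arm, MAP3K14, which encodes NIK, was the 1 gene of the list that fell. It had 18.6 and 19.0 CPM in RB-BC, against 51.5 and 60.4 CPM in DMSO (−1.57 ± 0.16, edgeR adjusted p = 0.00759). The groups were well separated, and its direction was opposite to that of BIRC3 and TRAF1. IKBKE, an IκB-kinase-related kinase, rose by 1.16 ± 0.18 and MAP3K8, the kinase TPL2 that links the IκB kinases to ERK, by 1.06 ± 0.20 (edgeR adjusted p = 0.0156 and 0.0223). The kinase gene MAP3K7 (−0.05 ± 0.16) and TAB2 (0.16 ± 0.21), which encodes a partner of that kinase, did not pass.

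Of 10 further brakes, ZC3H12A and TNIP3 rose. ZC3H12A, which encodes the RNA-degrading enzyme regnase-1, had 101 and 80.7 CPM in RB-BC, against 5.47 and 10.9 CPM in DMSO (3.48 ± 0.35, edgeR adjusted p = 0.00762). TNIP3, a relative of TNIP1, had 5.74 and 5.32 CPM in RB-BC, against 1.17 and 1.61 CPM in DMSO (1.99 ± 0.28, edgeR adjusted p = 0.0125). TAX1BP1 (−0.08 ± 0.14) and ITCH (0.08 ± 0.27), which work with A20, did not pass. Of 10 other TNF-induced and adhesion genes, 7 were tested, and TNFAIP8 (0.88 ± 0.19) and ICAM5 (1.46 ± 0.26) rose (edgeR adjusted p = 0.0325 and 0.0200). TNFAIP1 and TNFAIP8L1 did not pass, and the endothelial adhesion genes VCAM1 and SELE had no counts in any library. ICAM4, the next coding gene after ICAM1 on chromosome 19, had 45 and 32 counts in RB-BC, against 6 and 0 counts in DMSO, and did not pass (3.36 ± 0.90, edgeR adjusted p = 0.0553).

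**Figure D4:**
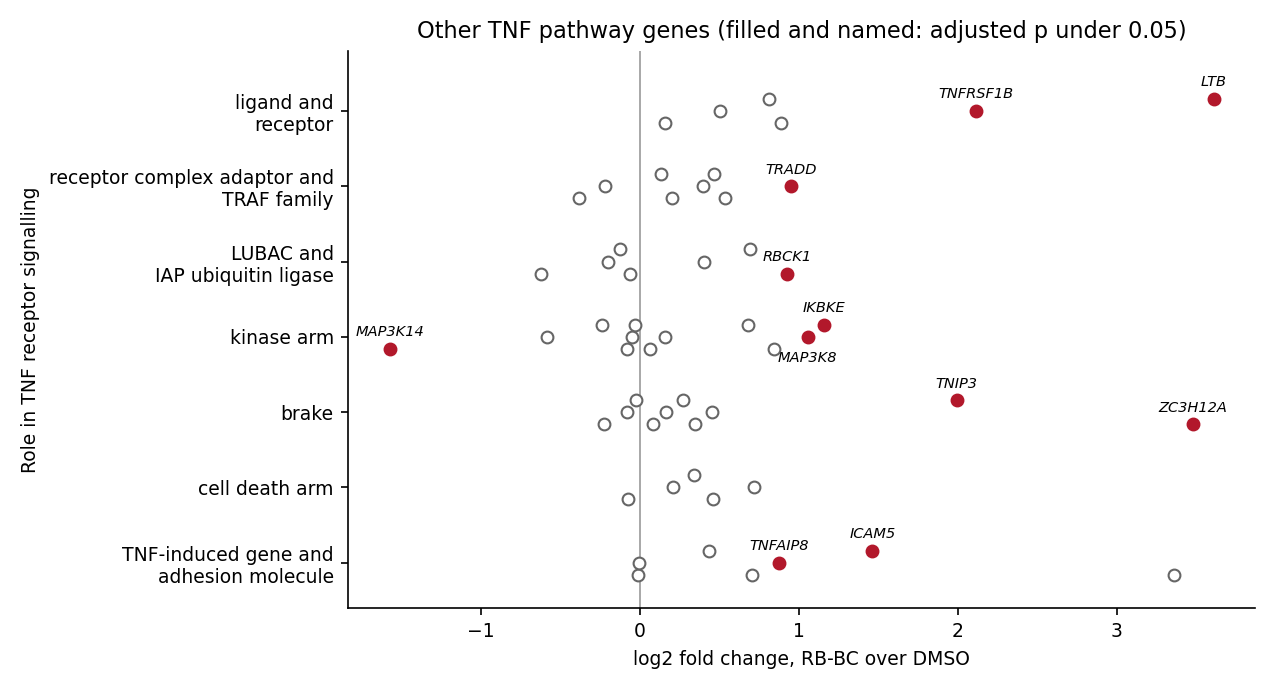
Log2 fold change, RB-BC over DMSO, of the 55 tested other genes of TNF receptor signalling, in rows by role, filled and named where the adjusted p was under 0.05. The 10 rises are spread over all roles but the cell death arm, where only 5 genes were tested. MAP3K14 is the only filled point below 0.

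DESeq2 gave 17 rises in the list, against 10 with edgeR, and 1639 over all tested genes, against 1179. With RB-BC 1 or RB-BC 2 left out, both the list and all tested genes had fewer rises, and without DMSO 2 both had more. Counts of rises in the list thus moved in the same direction as those over all tested genes. TNFRSF1B, ZC3H12A and MAP3K14 passed in every one of these fits. With RB-BC 1 left out the other 8 called genes did not pass, and TRADD, RBCK1, MAP3K8 and TNFAIP8 were also lost without RB-BC 2. TRADD was lost as well without DMSO 2 (edgeR adjusted p = 0.0601), and TRADD and TNFAIP8 with library totals alone as the scaling (edgeR adjusted p = 0.0697 and 0.0636).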

How the data were processed

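The file deposited by the authors gives unnormalized whole-number counts of reads for human Ensembl genes in the 4 libraries. Per the submitters' processing notes the builds were GRCm38 and mm10, both of them mouse, so no coordinates were taken from the count data, and the promoter coordinates are those of the RefSeq table on GRCh38.p14. The aligner, counting program, strand setting and annotation were not given in the sources used here. Groups and replicate numbers came from the sample titles. No label ties replicates to separate cultures, and p-values therefore measure a spread between libraries that may be technical. Replicates were not 1 library deposited under 2 names: chi-square values per degree of freedom were 38.8 (RB-BC) and 246 (DMSO).

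Counts were analysed with edgeR 4.0.16 in R 4.3.3: filterByExpr (minimum count 10, minimum total 15), TMM scaling, and a two-sided quasi-likelihood test with Benjamini-Hochberg adjustment at 0.05 over 13744 genes, first tried on simulated data. The quasi-likelihood test gives no standard error, so the SE is the absolute log2 fold change divided by the square root of the F statistic. The 95% intervals were built from that SE with a t distribution. CPM values were computed here with TMM-scaled library sizes. Exon lengths are unions of exons of protein-coding transcripts in GENCODE 29, which may not be the authors' annotation. Alternatives were RLE scaling, library totals, other count filters, DESeq2 1.42.0, limma-voom (limma 3.58.1), a replicate block, each library left out, and mitochondrially encoded genes removed. Named pathway genes are those that passed and, per role, the 2 with the highest mean count that did not, plus genomic neighbours and genes chosen after their values were seen (TRAF3 to TRAF6, LTA, ICAM4, VCAM1, SELE). An item of the marker list is not reported here. The members, the pathway list and the markers were chosen with earlier results of these data known.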

Additional observations from a re-analysis of the deposited data

How the results depend on the processing

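The 6 members that rose also numbered 6 with RLE scaling, library totals, the other filters, DESeq2, limma-voom, the replicate block and without mitochondrially encoded genes, and 4 to 6 with 1 library left out. Members that fell numbered 0, and 0 to 1 with 1 library left out, the 1 being BIRC2 without DMSO 2 (−0.82). Signs reversed for BIRC2 without DMSO 1 (0.12) and CYLD without DMSO 2 (−0.029, against 0.53 without DMSO 1); the cause was not tested. With 1 library left out, the log2 count ratios ranged from 2.20 to 2.97 (BIRC3 to BIRC2) and from 3.38 to 4.06 (TRAF1 to TRAF2), and a pseudocount of 5 moved neither by more than the spread between replicates. In these fits the remaining pair alone sets the spread, and the lone library is assumed to vary like it.

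Other pathway genes that rose numbered 17 with DESeq2 and 2 to 16 with 1 library left out, against 10, and 1 to 2 fell. Over all genes 1179 were higher and 1035 lower. Library totals gave 790 and 415, so 65.6% of calls were rises, against 53.3% with TMM. DESeq2 called 1639 higher and 1583 lower, and leaving out 1 library gave 149 to 1888 higher and 56 to 1760 lower. With the replicate block the counts were 1152 and 962, and 13 pathway genes rose. No label says that same-numbered libraries share more than a number. The deviations of these libraries from their group means had a correlation of −0.0653 over genes. With 2 libraries per group, that value cannot show whether they shared a culture or a day. TNF had too few counts to be tested; the effect of depth on other genes was not tested.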
